A study of Mus musculus with 16 samples.

Results

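The polyamine genes described here are 10 of the 41388 genes counted in mouse quadriceps muscle. They are *Odc1*, *Amd1*, *Amd2*, *Srm* and *Sms* for synthesis, *Smox* and *Sat1* for breakdown, and *Oaz1*, *Oaz2* and *Azin1* for the control of ornithine decarboxylase. Each was found by its symbol in the count table, and the pathway was selected on measured values, since the group differences in these same counts were known when it was chosen, although which of them led to the choice is not recorded. Tests on them therefore give each gene's place in a fit of all genes and are not independent evidence that the pathway changes. A further 28 genes of the pathway were listed by function for comparison.

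Polyamines are small positively charged molecules that bind RNA and DNA and are needed for growth and translation. Ornithine decarboxylase (*Odc1*) makes putrescine. S-adenosylmethionine decarboxylase (*Amd1*) makes the donor of the aminopropyl groups that spermidine synthase (*Srm*) and spermine synthase (*Sms*) add, to give spermidine and then spermine. Spermine oxidase (*Smox*) turns spermine back into spermidine, and spermidine/spermine acetyltransferase (*Sat1*) marks both for breakdown or export. Antizymes (*Oaz1*, *Oaz2*) bind ornithine decarboxylase and send it to the proteasome, and the antizyme inhibitor (*Azin1*) captures the antizymes. In skeletal muscle, *Amd1* and *Odc1* are known as genes that respond to androgens, and spermine oxidase is known to be low in wasting muscle.

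The study asked how the RNA of muscle lacking *Mtm1*, as in X-linked myotubular myopathy, differs from that of normal muscle with and without tamoxifen. The 4 groups, of 4 libraries each, were C57BL/6 mice aged 36 days by the labels, whereas a supplementary note of the study gives an age a day younger. The same note says that the mice were littermates, but no label ties a library to a litter. WT were untreated wild-type mice, WT + TAM were wild-type mice given tamoxifen in the diet, *Mtm1* KO were untreated knockout mice and *Mtm1* KO + TAM were knockout mice given the same drug. Exon 4 of *Mtm1*, the gene of the lipid phosphatase myotubularin, is removed in every cell of the knockout, so it is not specific to muscle, and the drug was given at 40 mg/kg per day from day 21. By the study's methods the drug diet also held sucrose, whereas untreated mice had standard chow. At this dose the study reports lower body weight in both genotypes. Diet and weight go with the drug in every treated group and cannot be told apart from it here. The sex of the mice sequenced is not given in the sources used here. The study compared 14 libraries and left out the library labelled WT replicate 1 and KO replicate 12 without a stated reason, and the same 14 are the main set here (3 WT, 4 WT + TAM, 3 *Mtm1* KO, 4 *Mtm1* KO + TAM).

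Libraries held 25116179 to 29847222 counts. *Mtm1* had 341 to 369 counts in the 3 main WT libraries, 282 to 459 in WT + TAM, 63 to 76 in *Mtm1* KO and 53 to 97 in *Mtm1* KO + TAM. The library labelled WT replicate 1, at 74 counts, lay in the range of the knockouts and so, by this gene alone, went against its label. Its *Amd1* (382 normalized CPM) and *Odc1* (141) lay within the range of the other WT libraries. It stood outside that range in *Smox* (480), *Amd2* (5.47), *Oaz1* (879), *Srm* (16.5), *Azin1* (30.02), *Sms* (120) and, by a small margin over 30.96, *Sat1*. KO replicate 12 lay outside the main *Mtm1* KO libraries on the same side in *Oaz1* (740 against 397 to 555), *Srm* (18.3 against 13.1 to 16.2), *Azin1* (66.3 against 73.4 to 91.1) and *Sms* (149 against 150 to 193). In *Smox*, *Amd2* and *Sat1* it lay within them. Results are given for the main libraries. The values of the library labelled WT replicate 1, or the fit that includes it, stand beside those that rest on WT. The defining muscle markers *Acta1*, *Ckm*, *Myh4* and 5 more summed to between 80017 and 209577 CPM in every library. The sum was 150000 to 198902 CPM in the main WT libraries and 160208 to 168888 in WT + TAM, against 86536 to 103043 in *Mtm1* KO and 80017 to 120050 in *Mtm1* KO + TAM. Markers of satellite cells and regenerating fibers moved the other way, from 60.8 to 72.7 CPM in WT to 190 to 251 in *Mtm1* KO, with KO replicate 12 at 419.5. Macrophage and leukocyte, fat cell, fibroblast, endothelial and red blood cell markers had 0 calls in any comparison, and no marker of any list was at 0 counts throughout a group. Sums of macrophage and leukocyte markers were still apart, at 48.6 to 57.4 CPM in WT and 63.8 to 94.6 in *Mtm1* KO. Those of fat cell, fibroblast, endothelial and red blood cell markers overlapped between these groups. The part of these markers in the members' values was not tested. In bulk muscle, fewer cells of a type and less RNA per cell cannot be told apart.

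*Amd1* and *Amd2* are read almost as 1 gene, so their sequences come before their values. *Amd1* (ENSMUSG00000075232) lies on chr10:40287458-40302186 and *Amd2* (ENSMUSG00000063953) on chr10:35708675-35711892, both on the minus strand (GRCm38, GENCODE vM21). The transcript Amd1-201 has 8 exons and 3204 bases, whereas Amd2-201 is a single exon of 3218 bases. Over the 3204 aligned bases 3190 are identical (99.6%), and 1002 bases are coding in each. Of the 14 differences, 12 lie in the 3′ UTR, 1 in the 5′ UTR and 1 in the coding sequence. The coding difference is G1124C, counted from 1 at the 5′ end of Amd1-201 with the base of *Amd1* first, and it is shown in capitals in the 60 bases around it, read from bases 1094 to 1153 of Amd1-201 and 1099 to 1158 of Amd2-201 (GENCODE vM21 transcripts).
Amd1: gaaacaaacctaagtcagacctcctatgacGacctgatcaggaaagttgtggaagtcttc
Amd2: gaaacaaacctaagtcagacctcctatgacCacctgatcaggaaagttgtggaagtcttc

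Upstream of the transcripts the 2 genes part. The windows below run from 120 bases before to 30 bases after each start site, *Amd1* on chr10:40302159-40302308 and *Amd2* on chr10:35711862-35712011 (minus strand, RefSeq, GRCm38.p6), and capitals mark the run shared by both, which is 48 bases long, runs past the windows' ends and begins at base 3 of *Amd1* and base 1 of *Amd2*.
Amd1: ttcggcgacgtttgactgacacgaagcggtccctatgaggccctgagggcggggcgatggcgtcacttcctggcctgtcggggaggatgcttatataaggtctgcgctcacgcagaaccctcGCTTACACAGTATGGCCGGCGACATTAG
Amd2: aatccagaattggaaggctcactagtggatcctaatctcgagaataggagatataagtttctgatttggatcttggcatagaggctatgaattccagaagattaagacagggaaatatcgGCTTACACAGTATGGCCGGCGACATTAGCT
The letters TATATAA, searched on both strands, occur in the *Amd1* window in 2 overlapping matches upstream of the start site, and in 3.24% of all 32851 RefSeq promoter windows of 300 bases, but in none of the other members' windows. RefSeq's table gave a window for 8 of the 10 members. The E-box CACGTG was found in 1 of the windows of *Sms* only (7.15% of all promoters), and the palindromic estrogen response element GGTCANNNTGACC in none (0.07%). A match is a description of letters and not of a bound site.

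Reads can be placed wrongly among these copies. Of the 50-base stretches of *Amd1* exons, 78.1% also occur in other genes, 76.7% in *Amd2*, 25.6% in the pseudogene *Amd-ps3* and 21.3% in *Amd-ps4*. *Amd2* shares 85.7% of its stretches, all of them with *Amd1*. *Odc1* shares 24.3% (at most 11.7% with 1 gene, *Gm7993*), *Oaz1* 21.0% (20.1% with *Oaz1-ps*), *Sms* 17.5% (17.4% with *Sms-ps*), and *Smox*, on chr2:131491496-131525922, shares 0%. The *Amd2* count was 0.588 to 0.694% of the *Amd1* count in the main WT libraries, 1.43% in the library labelled WT replicate 1 and 0.248 to 0.958% in the other groups, at 5 to 21 counts per library there. Values of *Amd1* and *Amd2* are therefore uncertain as to which copy they come from, and those of *Smox* are free of this limit.

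Levels between genes were compared as RPKM, which corrects for gene length. It does not correct for sequence shared with other genes, which is 78.1% of the stretches of *Amd1* and 24.3% of those of *Odc1*. How reads that match several genes were counted is unstated. If they were left out, the level of *Amd1* is too low beside the other genes. In WT the antizyme transcript *Oaz1* was the most abundant of the 10, at 174.5 ± 8.5 RPKM (SD, n = 3), followed by *Amd1* (120 ± 27.4), *Oaz2* (85.6 ± 4.8), *Smox* (68.9 ± 3.0), *Odc1* (47.1 ± 4.9) and *Sms* (25.8 ± 4.9). *Azin1* (10.5), *Sat1* (9.03), *Srm* (5.46) and *Amd2* (0.769) were lower. Neighbours in this order did not overlap between libraries, except *Amd1* with *Oaz2* and *Azin1* with *Sat1*. In the library labelled WT replicate 1, *Smox* (95.2 RPKM) lay above *Amd1* (91.9) and *Oaz2* (72.7), and *Azin1* (3.72) below *Srm* (7.97). With that library, *Smox* overlapped *Amd1* and *Oaz2*, and *Azin1* overlapped *Srm*. In WT the transcript of the decarboxylase that makes the aminopropyl donor was thus above that of ornithine decarboxylase in every library, with an *Amd1* to *Odc1* ratio of RPKM of 1.88 to 3.24.

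By RPKM, the order of these 2 transcripts was turned in the other 3 groups. Which of the 2 was higher within a group is subject to the limit on shared sequence given above. The ratio of *Odc1* to *Amd1* was 0.308 to 0.533 in the main WT libraries, 3.06 to 4.66 in WT + TAM, 3.23 to 3.68 in *Mtm1* KO and 3.45 to 6.14 in *Mtm1* KO + TAM. In WT + TAM, *Odc1* came next after *Oaz1*, at 124.6 ± 14.01 RPKM (n = 4), and *Amd1* was in place 4 at 30.7 ± 4.6. In *Mtm1* KO, *Amd1* was in place 5 at 22.6 ± 2.1 (n = 3) and overlapped *Smox* (19.4 ± 2.9). In *Mtm1* KO + TAM, *Amd1* (18.8 ± 5.4, n = 4) overlapped *Sat1* (19.7 ± 4.3), *Azin1* and *Smox*. The first and the last place, *Oaz1* and *Amd2*, were the same in the 4 groups. These ratios use values on which the pathway was picked and are given without a test.

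**Figure D1:**
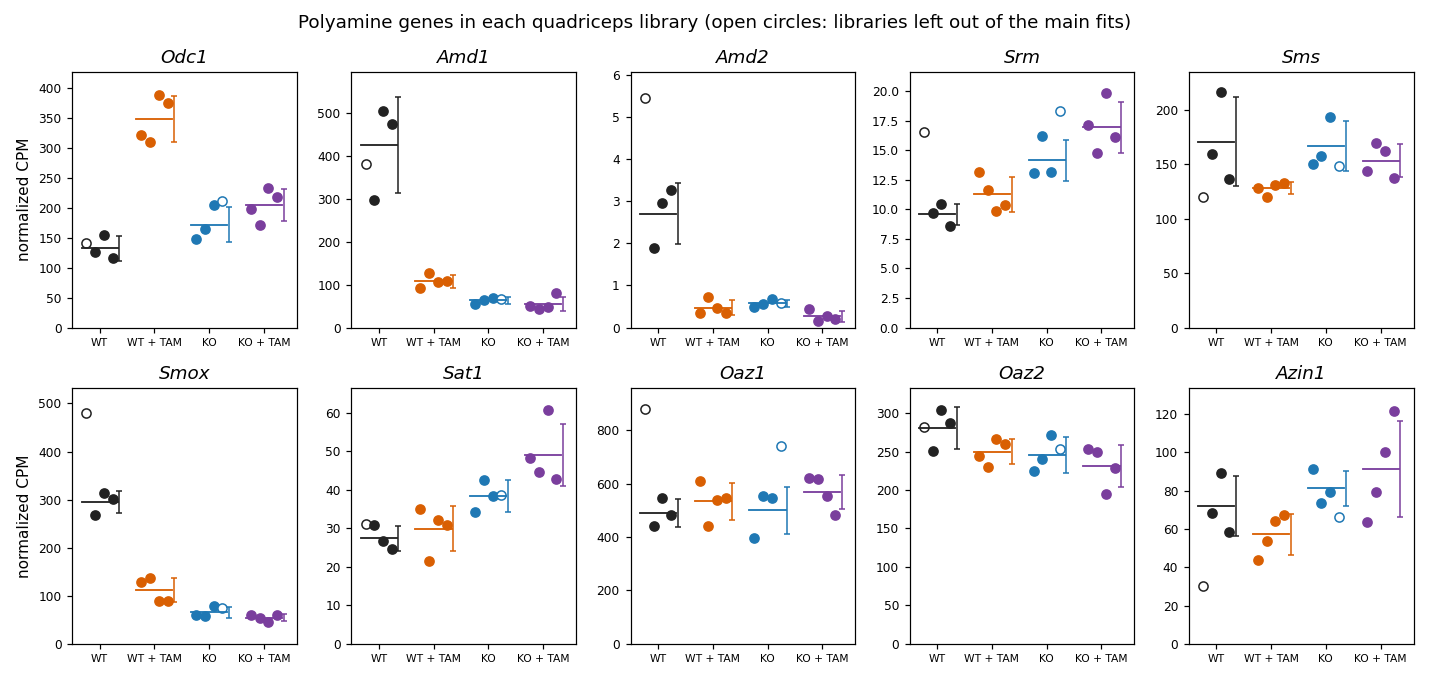
Normalized CPM (linear axis from 0) of the 10 polyamine genes in the 16 libraries, by group; filled circles are the main libraries, open circles the library labelled WT replicate 1 and KO replicate 12, horizontal lines the mean and vertical bars the SD of the main libraries. *Amd1* and *Smox* are at 297 and 269 or more in every WT library and at 137 or less in every library of the other groups, whereas *Odc1* is at 309 or more only in WT + TAM.

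For the knockout effect, *Mtm1* KO was compared with WT by edgeR's quasi-likelihood test over 14740 genes, with p-values adjusted by Benjamini-Hochberg and called at 0.01. Of all genes tested 3.6% were called, in either direction, and of the 10 members 3 were lower, *Amd1*, *Amd2* and *Smox*, and 0 higher. The calls of *Amd1* and *Amd2* may not be separate, since most of their sequence is shared. Transcripts of the donor enzyme and the spermine oxidase were thus lower, whereas those of ornithine decarboxylase, the aminopropyl transferases, the acetyltransferase and the antizyme group did not pass. The median log2 fold change was 0.02 over the members and 0.02 over all genes tested. At an unadjusted p of 0.05, 6 of the 10 members passed, as did 4431 of the 14740 genes.

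*Amd1* was at 297, 504 and 472.5 normalized CPM in WT and at 55.4, 64.1 and 69.8 in *Mtm1* KO, with KO replicate 12 at 66.3. All knockout libraries lay below all WT libraries, and the group means differed 6.73-fold. The log2 fold change was -2.73 (SE 0.21, adjusted p = 0.000274 in edgeR's quasi-likelihood test), place 21 of all genes by p. *Smox* was at 269, 313 and 301 in WT and at 59.0, 58.7 and 79.3 in *Mtm1* KO, with KO replicate 12 at 74.2. Here too the groups did not overlap, and the means differed 4.48-fold. The log2 fold change of *Smox* was -2.14 (SE 0.16, adjusted p = 0.000228, edgeR), place 14 of all genes. Both calls were kept under each of the 18 alternatives, with log2 fold changes of -2.93 to -2.33 for *Amd1* and -2.35 to -1.79 for *Smox*. Muscle fiber markers fell with them in sum (150000 to 198902 CPM in WT, 86536 to 103043 in *Mtm1* KO; 1 of 8 called lower), and 3 of 6 satellite and regeneration markers were called higher, but their part in these results was not tested.

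*Amd2* was at 1.88, 2.96 and 3.28 normalized CPM in WT (51 to 84 counts) and at 0.491, 0.557 and 0.669 in *Mtm1* KO (15 to 21 counts). Its log2 fold change of -2.21 (SE 0.36, adjusted p = 0.00668, edgeR) passed, but the call was lost without WT replicate 3 or 4 or without KO replicate 9, 10 or 11 (adjusted p 0.0224 to 0.0269), with the library labelled WT replicate 1 added (-2.53, adjusted p = 0.0159) and in limma on log2(RPKM + 1) (-0.55, adjusted p = 0.0102). Every WT library lay above every knockout library all the same.

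Among the members that were not called, *Srm* and *Sat1* had the lowest p. *Srm* was at 9.68, 10.4 and 8.62 normalized CPM in WT and 13.1, 16.2 and 13.2 in *Mtm1* KO, a log2 fold change of 0.59 (SE 0.16, adjusted p = 0.0411, edgeR). These main libraries did not overlap, but the library labelled WT replicate 1, at 16.5, lay above every knockout library of the main set. *Sat1* was at 30.96, 26.55 and 24.6 in WT and 34.1, 42.6 and 38.4 in *Mtm1* KO, a log2 fold change of 0.51 (SE 0.14, adjusted p = 0.0445, edgeR), and its groups did not overlap. *Odc1* was at 126, 155 and 116 in WT and 147, 165 and 204 in *Mtm1* KO, overlapping, with a log2 fold change of 0.40 (SE 0.16, adjusted p = 0.138, edgeR). The 10 most abundant genes took 23.6 to 27.6% of counts in WT and 16.9 to 18.8% in *Mtm1* KO. Scaling by library size alone moved the median of all genes to 0.33 and called *Odc1* (0.72, adjusted p = 0.00998), *Srm* (0.90, adjusted p = 0.00688) and *Sat1* (0.82, adjusted p = 0.00802) as higher. *Sms* (-0.01), *Oaz1* (0.05), *Oaz2* (-0.17) and *Azin1* (0.19) had log2 fold changes with adjusted p of 0.434 or more, and all 4 overlapped. With the library labelled WT replicate 1 added, the log2 fold changes were 0.35 for *Srm* (adjusted p = 0.520, edgeR), 0.46 for *Sat1* (0.181), 0.38 for *Odc1* (0.325) and 0.42 for *Azin1* (0.532).

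**Figure D2:**
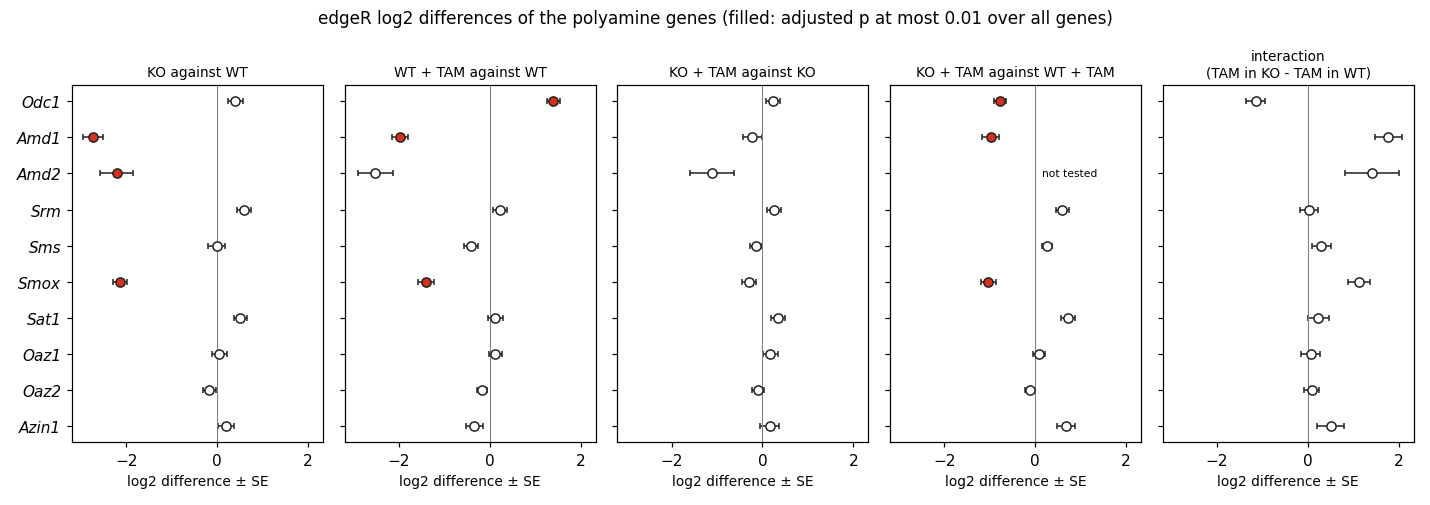
Log2 differences (points) with their SE (bars) of the 10 members from edgeR's quasi-likelihood fits in 4 comparisons and the interaction; filled points have an adjusted p of at most 0.01 over all genes tested. *Amd1* and *Smox* are filled and below 0 in the 3 comparisons other than *Mtm1* KO + TAM against *Mtm1* KO, and no member is filled in that one or in the interaction.

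The drug effect in normal muscle was read from WT + TAM against WT, which shares the WT libraries with the comparison above. Of 14544 genes 19 were called (0.131%). Of the members, which were chosen with these counts known, 3 were called: *Odc1* was higher, and *Amd1* and *Smox* were lower. Tamoxifen in wild-type mice thus went with more transcript of the enzyme that makes putrescine and less of the enzyme that makes the aminopropyl donor and of spermine oxidase. The median log2 fold change was -0.25 over the members and -0.00 over all genes.

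*Odc1* was at 321, 309, 388 and 374 normalized CPM in WT + TAM against 126, 155 and 116 in WT. The groups did not overlap, and the means differed 2.63-fold (log2 1.40, SE 0.14, adjusted p = 0.00295, edgeR), place 7 of all genes. *Amd1* was at 91.2, 127, 105 and 108 in WT + TAM, below every WT library (297 to 504), a 3.94-fold difference of the means (log2 -1.98, SE 0.18, adjusted p = 0.00223, edgeR), place 5. *Smox* was at 128, 137, 90.0 and 89.5 in WT + TAM, below 269 to 313 in WT, a 2.65-fold difference (log2 -1.41, SE 0.17, adjusted p = 0.00793, edgeR), place 17. The sums of muscle fiber markers (160208 to 168888 CPM) and of satellite and regeneration markers (58.5 to 88.8 CPM) in WT + TAM overlapped those of WT. Fat cell markers summed to 113 to 526 CPM in WT + TAM and 22.4 to 319 in WT (median log2 fold change 1.14, 0 of 4 called), and endothelial markers to 197 to 257 against 246 to 378 (median -0.44, 0 of 4 called). The part of these markers in the results was not tested. With so few libraries the calls were near the threshold: without WT replicate 4 or WT + TAM replicate 5, 7 or 8, no member passed 0.01, without WT replicate 2 only *Amd1* passed, and without WT replicate 3 *Smox* was lost, with adjusted p of the lost calls between 0.0134 and 0.0397 and the same directions. With the library labelled WT replicate 1 added, *Smox* had a log2 fold change of -1.61 and an adjusted p of 0.0193, and limma on log2 RPKM also missed the threshold for it (adjusted p 0.0127 and 0.0134 with pseudocounts of 0.1 and 1).

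*Amd2* was at 0.344, 0.724, 0.469 and 0.337 normalized CPM in WT + TAM, below the WT range of 1.88 to 3.28, but on 8 to 18 counts per library. Its log2 fold change was -2.52 (SE 0.38, adjusted p = 0.0253, edgeR), past the filter on low counts by virtue of the WT libraries, since 2 of the 4 WT + TAM libraries held under 10 counts. *Sms* was at 128.5, 120, 131 and 133 in WT + TAM and 159, 217 and 137 in WT, without overlap in the main set (log2 -0.42, SE 0.15, adjusted p = 0.340, edgeR), but the library labelled WT replicate 1 was at 120. *Srm* (0.23), *Sat1* (0.12), *Oaz1* (0.12), *Oaz2* (-0.17) and *Azin1* (-0.34) had adjusted p of 0.539 or more and overlapping ranges.

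The drug effect in the knockout was read from *Mtm1* KO + TAM against *Mtm1* KO. None of 15062 genes was called in edgeR's quasi-likelihood test (0%, with 1137 at an unadjusted p of 0.05), and hence 0 of the 10 members, of which 2 had an unadjusted p under 0.05. With DESeq2 68 genes passed, and 72 with the exact test, none of them a member. The 3 members that passed in wild-type muscle had values close to each other in the 2 knockout groups. *Amd1* was at 49.4, 42.1, 47.6 and 79.3 normalized CPM with the drug and 55.4, 64.1 and 69.8 without (log2 -0.22, SE 0.20, adjusted p = 0.877, edgeR). *Odc1* was at 197, 170, 232 and 217 with the drug and 147, 165 and 204 without (log2 0.24, SE 0.15, adjusted p = 0.811, edgeR). *Smox* was at 59.15, 52.8, 44.5 and 60.4 with the drug and 59.0, 58.7 and 79.3 without (log2 -0.29, SE 0.15, adjusted p = 0.751, edgeR). All 3 overlapped between the groups.

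In normalized CPM the groups did not overlap for *Sat1*, the acetyltransferase, and *Amd2*, the 2 members with an unadjusted p under 0.05. Here and elsewhere, how many of all genes had groups that did not overlap was not counted. In RPKM, which was not scaled by TMM, *Sat1* overlapped, at 16.7 to 26.1 with the drug and 14.4 to 18.0 without. *Sat1* was at 48.3, 44.6, 60.6 and 42.9 normalized CPM with tamoxifen, above 34.1 to 42.6 without it and above KO replicate 12 at 38.7, a log2 fold change of 0.34 (SE 0.15, adjusted p = 0.625, edgeR). *Amd2* was at 0.433, 0.1502, 0.281 and 0.197 against 0.491 to 0.669, on 5 to 13 counts with the drug, and so passed the filter on low counts through the untreated libraries (log2 -1.12, SE 0.48, adjusted p = 0.618, edgeR). *Srm* (0.25), *Sms* (-0.14), *Oaz1* (0.17), *Oaz2* (-0.10) and *Azin1* (0.15) were between -0.14 and 0.25 on the log2 scale, and their groups overlapped.

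Whether tamoxifen acted differently in the 2 genotypes was tested as an interaction in 1 fit of the 14 libraries, as the log2 fold change in the knockout less that in wild type. No gene of 15556 was called (0%, lowest adjusted p 0.27, 664 at an unadjusted p of 0.05), so a difference between genotypes was not shown for any member in edgeR's test. By unadjusted p, *Amd1* and *Odc1* stood in places 1 and 2 of all genes and *Smox* in place 11. These counts were known when the pathway was chosen, so the places are not independent evidence of a difference between genotypes. The difference was 1.77 for *Amd1* (SE 0.30, adjusted p = 0.270, edgeR), -1.15 for *Odc1* (SE 0.21, adjusted p = 0.270) and 1.13 for *Smox* (SE 0.24, adjusted p = 0.337). *Amd2* (1.41, SE 0.59) was the 1 other member with an unadjusted p under 0.05. It rests on 8 to 18 counts per library in WT + TAM and 5 to 13 in *Mtm1* KO + TAM, too few for a test between those groups. Most of its sequence is shared with *Amd1*, so it is not separate support. DESeq2 called 12 genes, among them *Amd1* (adjusted p = 0.000156) and *Odc1* (adjusted p = 0.00158), and these 2 calls depend on that tool. With the library labelled WT replicate 1 added, edgeR gave 1.73 for *Amd1* and -1.12 for *Odc1* (adjusted p = 0.330 for both) and 1.34 for *Smox* (adjusted p = 0.630). *Srm*, *Sms*, *Sat1*, the antizymes and *Azin1* had differences of 0.03 to 0.50 with adjusted p near 1.

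**Figure D3:**
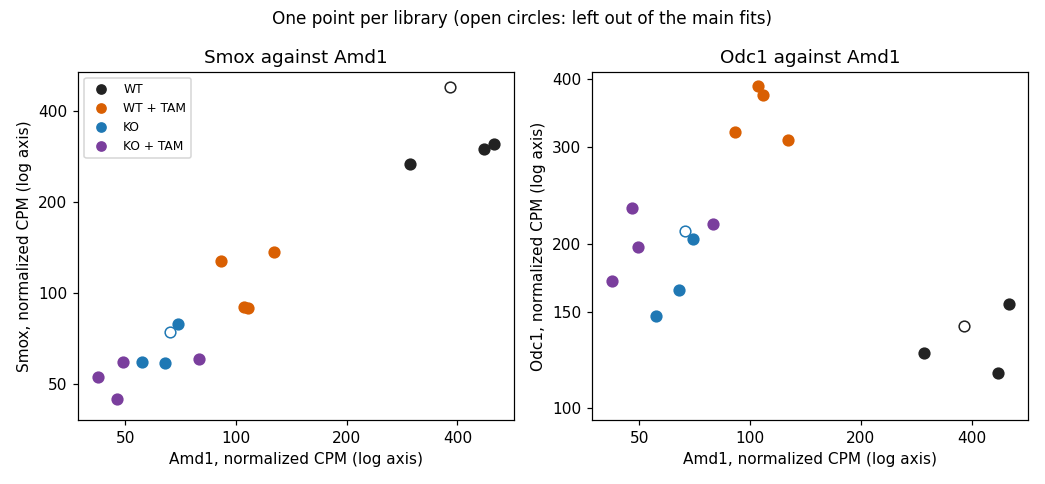
Normalized CPM of *Smox* (left) and *Odc1* (right) against *Amd1* in each of the 16 libraries, on log axes, coloured by group; open circles are the library labelled WT replicate 1 and KO replicate 12. WT libraries sit at the upper right on the left and at the lower right on the right, and the 4 WT + TAM libraries, with *Amd1* at 91.2 to 127, stand apart at *Odc1* of 309 or more.

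Under the drug, *Mtm1* KO + TAM was compared with WT + TAM. Of 14563 genes 6.72% were called, and of the 9 members tested 3 were lower, *Amd1*, *Odc1* and *Smox*, and 0 higher. *Amd2* had too few counts to be tested here. The median log2 fold change was 0.09 over the 9 members and -0.01 over all genes.

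*Odc1* was at 170 to 232 normalized CPM in *Mtm1* KO + TAM and 309 to 388 in WT + TAM, without overlap (log2 -0.77, SE 0.13, adjusted p = 0.00303, edgeR). *Smox* was at 44.5 to 60.4 against 89.5 to 137, also apart (log2 -1.03, SE 0.17, adjusted p = 0.00218, edgeR), and *Amd1* at 42.1 to 79.3 against 91.2 to 127 (log2 -0.98, SE 0.19, adjusted p = 0.005665, edgeR). *Amd1* and *Smox* were thus called lower in the knockout with and without the drug, whereas *Odc1* was called lower with it and had an uncalled log2 fold change of 0.40 without it. The difference between these 2 contrasts is the interaction given above, which was not called for *Odc1*. The call of *Amd1* was lost without WT + TAM replicate 6, 7 or 8 or KO + TAM replicate 13, 14 or 15 (adjusted p 0.0139 to 0.0264), that of *Odc1* without WT + TAM replicate 7 or 8 or KO + TAM replicate 13 or 14 (0.0101 to 0.0114), and that of *Smox* without KO + TAM replicate 15 (0.0104). Scaling by library size alone, which moved the median of all genes to 0.27, gave -0.71 for *Amd1* (adjusted p = 0.0140) and -0.48 for *Odc1* (adjusted p = 0.0226). Limma on log2 RPKM, at both pseudocounts, also missed the threshold for *Amd1* (adjusted p 0.0146 and 0.0156) and *Odc1* (0.0218 and 0.0225).

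*Sat1*, *Srm* and *Azin1* had positive log2 fold changes that missed 0.01 under the drug. *Sat1* was at 42.9 to 60.6 normalized CPM in *Mtm1* KO + TAM and 21.5 to 34.9 in WT + TAM (0.72, SE 0.16, adjusted p = 0.0125, edgeR). *Srm* was at 14.7 to 19.8 against 9.89 to 13.1 (0.59, SE 0.14, adjusted p = 0.0155, edgeR). Both stood apart between the groups, whereas *Azin1*, at 63.6 to 121 against 43.7 to 67.1, overlapped (0.68, SE 0.20, adjusted p = 0.0387, edgeR). DESeq2 called these 3 genes as higher, with adjusted p of 0.000828 for *Sat1*, 0.00272 for *Srm* and 0.00832 for *Azin1*. *Sms* was at 137 to 169 against 120 to 133, apart (0.26, SE 0.10, adjusted p = 0.112, edgeR), and *Oaz1* (0.09) and *Oaz2* (-0.11) overlapped. Sums of macrophage and leukocyte markers were 63.6 to 109 CPM in *Mtm1* KO + TAM and 24.1 to 55.4 in WT + TAM, with 0 of 6 called, and their part in the values of *Sat1*, *Srm* and *Azin1* was not tested.

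The 2 breakdown genes did not move together between the groups, although *Sat1* was called in none of the main fits. The ratio of *Sat1* to *Smox* in RPKM was 0.115 to 0.162 in the main WT libraries, 0.220 to 0.501 in WT + TAM, 0.681 to 1.02 in *Mtm1* KO and 0.997 to 1.91 in *Mtm1* KO + TAM. Acetyltransferase transcript was below spermine oxidase transcript in every wild-type library. The same held in KO replicates 9 (0.812) and 11 (0.681) and, barely, in KO + TAM replicate 16 (0.997). The ranges of WT, WT + TAM and *Mtm1* KO did not overlap. With KO replicate 12 (0.733) and the library labelled WT replicate 1 (0.0906) these ranges stayed apart. The ratio uses values on which the pathway was picked and is given without a test.

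Of the 28 other genes of the pathway, 24 were tested, and *Arg1*, *Arg2*, *Mat1a* and *Oaz3* had too few counts in every comparison. Between *Mtm1* KO and WT, 1 of 24 was called, a share close to the 3.6% of all genes. It was *Atp13a2*, a lysosomal exporter of polyamines, and it was lower. *Atp13a2* was at 31.4, 39.7 and 36.7 normalized CPM in WT and 21.4, 19.0 and 21.4 in *Mtm1* KO (log2 -0.78, SE 0.13, adjusted p = 0.00806, edgeR). The groups did not overlap, but no pathway gene was called when any 1 library was left out or when the library labelled WT replicate 1 or KO replicate 12 was added. In WT + TAM against WT, 0 of 24 were called by edgeR, DESeq2 or limma (4 at an unadjusted p of 0.05, against 1549 of all 14544 genes), and *Atp13a2*, at 32.7 to 50.4, overlapped WT.

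In *Mtm1* KO + TAM against WT + TAM, 3 of 24 were lower and 0 higher, beside 6.72% of all genes called in either direction. The 3 became 1 to 2 when 1 library was left out. *Oat*, the mitochondrial aminotransferase that consumes ornithine, was at 104 to 147 against 204 to 219 normalized CPM (log2 -0.75, SE 0.12, adjusted p = 0.00201, edgeR). *Adi1*, which acts late in the salvage of methionine from methylthioadenosine, a by-product of both aminopropyl transferases, was at 27.7 to 31.7 against 41.2 to 45.2 (log2 -0.49, SE 0.10, adjusted p = 0.00631, edgeR). *Atp13a2* was at 19.98 to 23.7 against 32.7 to 50.4 (log2 -0.81, SE 0.15, adjusted p = 0.00416, edgeR). All 3 stood apart between the groups. Untreated, *Oat* (log2 -0.63, adjusted p = 0.0399, edgeR) and *Adi1* (log2 -0.55, adjusted p = 0.0217, edgeR) missed the threshold. In *Mtm1* KO + TAM against *Mtm1* KO and in the interaction 0 of 24 were called by edgeR or DESeq2 (3 and 1 at an unadjusted p of 0.05).

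By function, no gene of the hypusine group (*Eif5a*, *Eif5a2*, *Dhps*, *Dohh*), which uses spermidine to modify a translation factor, was called in any of the 5 comparisons, and their log2 values lay between -0.29 and 0.38 in *Mtm1* KO against WT. *Eif5a* was the most abundant of them, at 458 ± 42.6 normalized CPM in WT and 504 ± 66.05 in *Mtm1* KO (SD, n = 3 each). *Mat2a*, which makes S-adenosylmethionine, the substrate of *Amd1*, was at 240 ± 35.4 in WT and 201 ± 41.2 in *Mtm1* KO (log2 -0.23, SE 0.18, adjusted p = 0.425, edgeR). The remaining oxidase and acetyltransferase of the pathway, *Paox* (4.45 ± 2.06 in WT) and *Sat2* (4.35 ± 0.46 in WT), were low, and neither was called in any comparison.

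**Figure D4:**
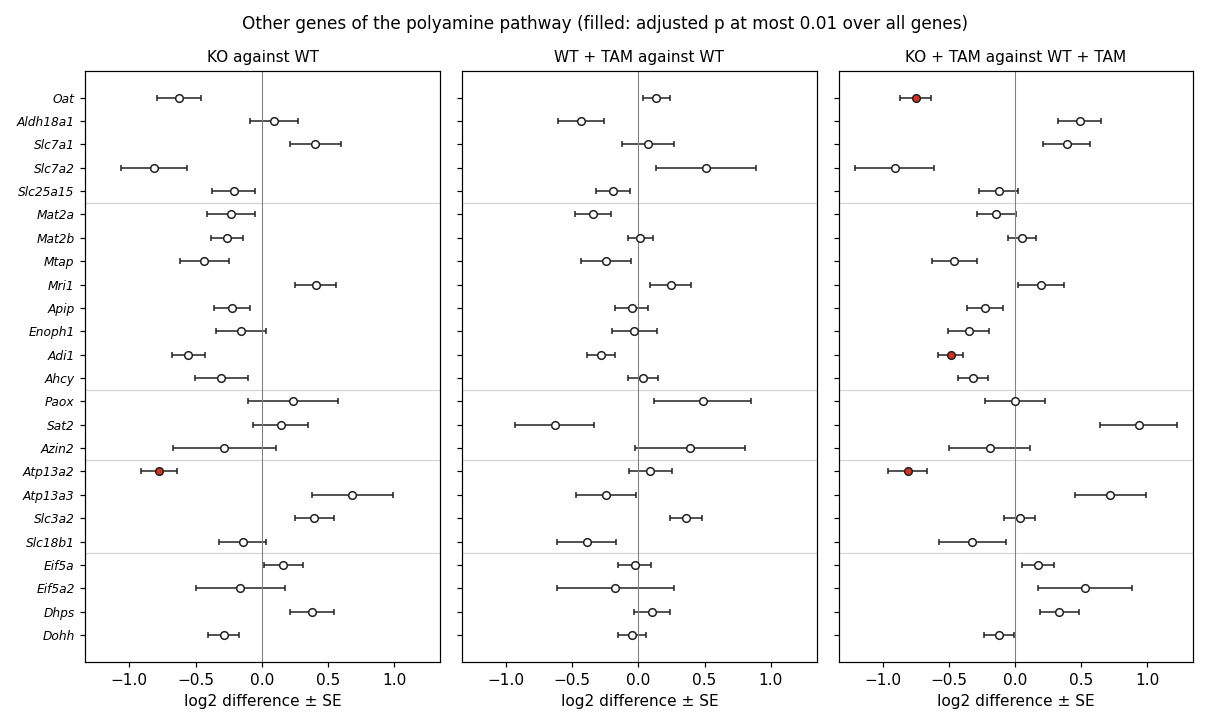
Log2 differences (points) with SE (bars) of the 24 tested other genes of the pathway in 3 comparisons, from edgeR's quasi-likelihood fits, in the order ornithine and arginine, S-adenosylmethionine and methylthioadenosine, further oxidase, acetyltransferase and inhibitor, transport, hypusine (grey lines between them); filled points have an adjusted p of at most 0.01 over all genes. The filled points are *Atp13a2* for the untreated genotypes and *Oat*, *Adi1* and *Atp13a2* for the treated ones, all below 0.

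Genes whose pattern was most like that of *Amd1* and *Smox* were sought among 8631 genes with a mean log2 CPM of at least 3, by Pearson's correlation of log2 CPM over the 14 main libraries. These libraries share the 4 groups, so the values describe a likeness and are given without a test. For *Amd1* they were *Map7d1* (0.98), *Hrasls* (0.96), *Plcd4* (0.94), *Gadl1* (0.94) and *Hfe2* (0.93). For *Smox* they were *Map7d1* (0.96), *Hrasls* (0.95), *Kcng4* (0.94), *Tbc1d19* (0.94) and the pathway gene *Adi1* (0.94). *Hrasls* was at 58.3 ± 2.6 normalized CPM in WT, 33.03 ± 3.0 in WT + TAM, 19.0 ± 0.19 in *Mtm1* KO and 16.2 ± 3.6 in *Mtm1* KO + TAM, and so had the order of groups seen in *Amd1* and *Smox*. With all 16 libraries, *Map7d1*, *Kcng4*, *Adi1* and *Fam131a* were among the 5 nearest genes of both.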

How the data were processed

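RNA from quadriceps was measured in 16 libraries, and 41388 genes are listed. The deposited raw count table was made by the authors by alignment to GRCm38 with STAR and counting with HTSeq, and the deposited RPKM by scaling counts to total count and gene length. The submitters' processing notes name bcl2fastq 2.17, STAR 2.5.0c and Cufflinks 2.2.1. The annotation, counting mode and strand setting are unstated in the sources used here, so antisense and overlapping genes cannot be separated. Counts on 2 groups at a time were tested with edgeR's quasi-likelihood test (4.0.16) in R (4.3.3), with TMM scaling, filterByExpr (minimum count 10, minimum total 15) and Benjamini-Hochberg adjustment over all genes tested, called at 0.01, the level the study used with edgeR and DESeq together and which is applied here to edgeR alone. Normalized CPM uses TMM factors of the 16 libraries. The SE is the log2 fold change divided by the root of F. Each library is 1 mouse by the study's account, and p-values measure the spread between libraries, with litters left out of the fits. WT + TAM replicates 7 and 8 were close in *Amd1* (105 and 108 normalized CPM), *Smox* (90.0 and 89.5) and *Oaz1* (540 and 546), less so in *Amd2* (0.469 and 0.337). Replicates 5 and 6 were further apart in *Oaz1* (610 and 441). Whether replicates 7 and 8 are independent was not tested, so the spread within WT + TAM may be understated. All 10 members are named, with other pathway genes called in any comparison, genes holding over 10% of a member's 50-base stretches, and the 5 genes nearest *Amd1* and *Smox*. *Gm17709* and *Gm9115* also follow from this rule, through *Odc1*. *Mat2a*, *Paox*, *Sat2* and the hypusine genes are named outside this rule, after their values were seen. Members and lists were chosen with earlier results of these data known. The alternatives were DESeq2 (1.42.0), limma (3.58.1) on log2 RPKM with pseudocounts of 0.1 and 1, edgeR's exact test, RLE and library size scaling, no filter, a threshold of 0.05, 1 fit of 4 groups, 16 libraries and each library left out. RPKM was not scaled by TMM.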

Additional observations from a re-analysis of the deposited data

Results flagged for a closer look

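The effect of tamoxifen on *Amd1* and *Odc1* differed between the genotypes in 1 of the tools run. In DESeq2's interaction test, the log2 fold change in knockout less that in wild type was 1.77 for *Amd1* (adjusted p = 0.000156) and -1.15 for *Odc1* (adjusted p = 0.00158). edgeR's quasi-likelihood test gave the same sizes with an adjusted p of 0.27 for both. Both genes belong to a pathway chosen with these counts known. Every WT + TAM library lay below every WT library in *Amd1*, and the knockout libraries with and without the drug overlapped in both genes. No member had a library far from the other 3 of its group by Dixon's criterion (0 of 40 groups).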

How the results depend on the processing

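No paired analysis was possible because no label ties a library to a litter, although the mice were littermates, and no replicate number is shared between the 4 groups. In *Mtm1* KO against WT, the 3 members called became 6 with library size scaling and 5 at a threshold of 0.05, and 2 to 3 with 1 library left out. The 1 other pathway gene called there became 0 with 16 libraries, with only WT replicate 1 or only KO replicate 12 added (both chosen after seeing the data), with limma at both pseudocounts and with any library left out (0 to 0), 4 with DESeq2, 2 with the exact test, and 3 at 0.05 and in 1 fit of 4 groups. In WT + TAM against WT, the 3 members became 0 to 3 with 1 library left out and 2 to 4 otherwise. In *Mtm1* KO + TAM against WT + TAM, the 3 members became 6 with DESeq2 and at 0.05, 5 with the exact test, library size scaling and 1 fit of 4 groups, and 1 to 3 with 1 library left out. The 3 other pathway genes became 1 with limma at a pseudocount of 1 and 1 to 2 with 1 library left out. In the interaction, 0 members became 2 with DESeq2. In *Mtm1* KO + TAM against *Mtm1* KO, 0 members were called under each alternative run. The number of all genes called in *Mtm1* KO against WT was 531, 211 with 16 libraries, 1163 with library size scaling, 1630 with DESeq2 and 1885 at 0.05. In WT + TAM against WT it was 19, 208 with DESeq2, 178 with the exact test and 81 with no filter. In *Mtm1* KO + TAM against WT + TAM it was 979, 1931 with DESeq2, 1826 with the exact test and 1874 with library size scaling. It was 1325 there in 1 fit of 4 groups and 2476 at 0.05. Each rise in calls of members came with a rise in calls of all genes, but not the reverse. In *Mtm1* KO against WT, DESeq2 called 1630 genes and still 3 members. Over the members' log2 fold changes, no called value changed sign in any alternative; of the alternative values, 827 stayed on their side of the threshold, 43 lost a call, 35 gained one and 37 changed sign without a call. The causes of these changes were not tested. *Amd2* rests on 5 to 84 counts per main library, and its log2 difference between *Mtm1* KO and WT shrank to -0.55 with a pseudocount of 1 on RPKM.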
